A study of Danio rerio with 7 samples.

Results

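The cells described here were head mesoderm cells that came through a sort aimed at cranial neural crest (NC). A cell counted as head mesoderm when it held at least 1 UMI (unique molecular identifier, 1 counted transcript) of at least 3 of 8 marker genes, tbx1, tcf21, meox1, six2a, cnmd, cyp26c1, nog1 and egfl6, and no UMI of dlx2a, epcam, cdh5, spi1b or cmlc1. In all, 61 of 2854 cells met this rule (2.14%, exact 95% interval 1.64 to 2.74). They were set against 998 crest ectomesenchyme cells, the skeletogenic NC of the arches, defined by at least 1 UMI of both dlx2a and twist1a. Embryos carried Tg(sox10:nEOS)w18, in which sox10 regulatory sequence drives a photoconvertible nuclear protein, and cells of the first pharyngeal arch (PA1) stream were photoconverted by region and sorted. Embryos of the AB strain gave 1 library at each of 12, 14, 18, 20, 24 and 30 hpf (hours post-fertilization) on version 2 of the 10x Genomics chemistry, and a second, larger 18 hpf library was made on version 3. The 7 libraries share this genotype, and no treatment distinguishes them.

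Head mesoderm lies beside the migrating NC and fills the core of each pharyngeal arch. It gives rise to jaw and other head muscles, and its anterior and medial parts also contribute to the heart and the vessels of the head. Arch ectomesenchyme surrounds this core, and the tissues exchange secreted signals of the endothelin, BMP, FGF, PDGF and chemokine families. Tbx1 and Tcf21 are transcription factors of branchiomeric muscle progenitors, Meox1 and Six2a are homeodomain factors, Cyp26c1 degrades retinoic acid, and Noggin1 binds and blocks BMP ligands.

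Of 11 further head mesoderm markers measured in both count tables, 10 had a UMI in the 61 cells, foxf1 was at 0, and 59 cells held at least 1 of them. Their summed level was 423 to 934 UMIs per 1000000 UMIs of a class (CPM) over the libraries in head mesoderm, against 15.4 to 314 CPM in ectomesenchyme. Of 8 NC markers, tfap2a, foxd3, dlx1a and dlx5a had no UMI in any of the 61 cells, while the other 4, among them sox10 and prrx1a, were present. The genes dlx1a and dlx5a are of the same family as dlx2a, whose absence the rule required, so their absence is not an independent check. All 61 cells held at least 1 NC marker, and the list summed to 556 to 2267 CPM in head mesoderm and 508 to 1847 CPM in ectomesenchyme. Of 8 endothelial markers, tal1 and tie1 were at 0 and the other 6 had UMIs, in 24 cells, with a sum of 0 to 107 CPM in head mesoderm and 41.9 to 143 CPM in ectomesenchyme. Of 6 erythroid markers, gata1a, klf1 and alas2 were at 0 and the other 3 were seen in 7 cells. Of 4 neural markers, sox2 and pax6a were at 0 and the other 2 were seen in 3 cells, and of 4 myeloid markers lcp1, coro1a and mpx were at 0 and 1 cell held the other. Cardiac markers were not absent, since all 9 had UMIs and 21 of the 61 cells held at least 1, and 6 cells held 3 or more. Their summed level was 0 to 489 CPM in head mesoderm and 0 to 291 CPM in ectomesenchyme, and the markers include hand2, a factor of heart and ventral arch. Epithelial markers were seen in 60 of the 61 cells. They summed to 340 to 1562 CPM in head mesoderm and 92.6 to 1147 CPM in ectomesenchyme, and their part in the results was not tested. Over the second 18 hpf, 20 hpf and 30 hpf libraries the keratin gene krt18a.1 had 576 CPM in head mesoderm and 141 CPM in ectomesenchyme. For krt8 these were 416 and 475 CPM, and neither passed the comparison below (adjusted p = 0.153 and 0.510, edgeR). The epithelial adhesion gene cdh1 was seen in 4 of the 61 cells.

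The epcam condition did most of the sorting within the rule. At least 3 markers were present in 174 cells, of which 113 were left out, 109 of them for a UMI of epcam. Those 109 cells shared tbx1 (82.6% of cells), cyp26c1 (90.8%) and egfl6 (82.6%) with head mesoderm, but tcf21 was found in 0.917% of them, the paired-type homeobox gene prrx1a in 9.17%, and cdh1 in 92.7%. At the edge of the rule, all 6 cells with exactly 3 markers had prrx1a and cxcl12a and none had tfap2a. Of 26 cells with exactly 2 markers, 7 had prrx1a, 13 had cxcl12a and 3 had tfap2a.

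Head mesoderm was absent from the sample at 12 hpf and formed its largest share at 30 hpf. At 12 hpf 0 of 238 cells met the rule, which allows a share of up to 1.26%. The share was 0.565% at 14 hpf (2 of 354 cells), 2.82% at 18 hpf (7 of 248), 1.53% in the second 18 hpf library (15 of 979), 2.52% at 20 hpf (13 of 516) and 2.06% at 24 hpf (8 of 388). At 30 hpf it was 12.2% (16 of 131 cells, exact 95% interval 7.15 to 19.1). The 30 hpf interval lay above those of the other libraries, including the largest upper bound among them, 5.73% at 18 hpf. With 1 library at each age and a sorted region drawn by hand, age and the sort cannot be told apart, and intervals cover counting error only.

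**Figure D1:**
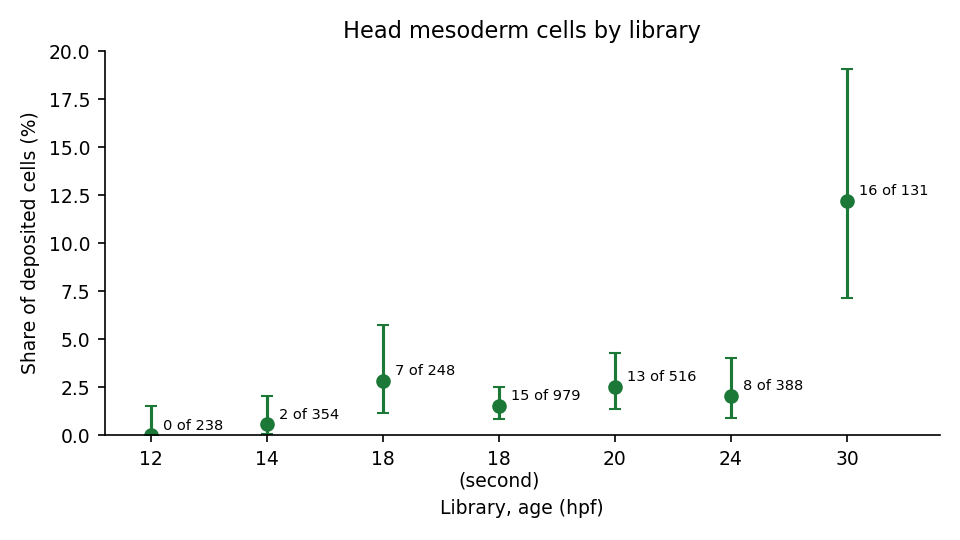
Share of deposited cells in each library that met the head mesoderm rule (vertical axis, %), by library age in hpf (horizontal axis). Points are shares and bars exact 95% binomial intervals; the 30 hpf point, 12.2%, stands above the others, which lie at 0 to 2.82%.

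Depth differed between the libraries, with a median of 12431 UMIs per cell at 30 hpf and 23038 in the second 18 hpf library. Their totals, 1711154 and 23950255 UMIs, also reflect 131 and 979 cells. The median cell held 13972 UMIs in head mesoderm and 18566.5 in ectomesenchyme. The share of mitochondrial UMIs in a head mesoderm cell reached 3.78% at most. Of the 61 cells 1 was called a doublet, and the 1 barcode found in more than 1 library was not among them.

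The markers that chose the cells did not mark them evenly, and the values that follow are a description with no test. Among the 61 cells, tbx1 and cyp26c1 were found in 49 each, cnmd and egfl6 in 44 each, meox1 in 39, six2a in 37, tcf21 in 29 and nog1 in 26. The retinoic acid-degrading gene cyp26c1 was the most abundant over all libraries together, though not at 14 or 18 hpf, with 42.5 CPM at 14 hpf, 298 at 18 hpf, 1598 in the second 18 hpf library, 617 at 20 hpf, 802 at 24 hpf and 878 at 30 hpf. It was in 1 of 7 cells at 18 hpf but in 14 of 15 in the second 18 hpf library, so the libraries of that age, which differ in chemistry, were unlike each other. They also differed in their mix of cells, with tcf21 in 1 of 7 and 9 of 15 cells, and in 0 of 2 at 14 hpf. Over all libraries cyp26c1 had 1439 CPM in cells with tcf21 and 479 CPM in those without. The part of this mix in levels by library, here and below, was not tested. Both nog1 and egfl6 were lowest in the oldest library, in which nog1 was found in 1 cell and egfl6 in 3 cells of 16. There nog1 had 5.46 CPM, against 350 CPM in the second 18 hpf library, and egfl6 had 27.3 CPM, against 573 CPM. The paraxial mesoderm gene meox1 was most abundant at 30 hpf, at 387 CPM in 14 of 16 cells. None of the 998 ectomesenchyme cells had tcf21, and tbx1 was at 0.242 CPM over all of them.

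The comparison with ectomesenchyme asked which genes outside the rule separated the 2 classes of cells. Where the head mesoderm cells lay in the embryo was not measured. UMIs were summed by class within a library, and a library entered if both classes had 10 cells or more in it, which left the second 18 hpf, 20 hpf and 30 hpf libraries. Of 4535 genes tested, 118 were higher in head mesoderm (2.6%) and 58 lower (1.28%), 176 in all (3.88%), by edgeR's quasi-likelihood test at an adjusted p of 0.05. Of the 176 genes, 175 differed in the same direction in each of the 3 libraries. The count depended on the libraries, being 60 without the second 18 hpf library, 91 without the 20 hpf library and 871 without the 30 hpf library. The classes were drawn by other genes of the same cells, so the grouping is not independent of the readout that was tested. The model left 2 residual degrees of freedom for each gene, so p-values lean on variance that edgeR shares across genes. Each SE was derived from the test, as the absolute log2 change divided by the square root of its F statistic. It can be narrower than counting error where 1 class has few UMIs. Fitted log2 changes of genes with few UMIs in 1 class depend on the prior count, and for several of those the ratio of summed UMIs is given.

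Genes of several secreted signals differed between the classes. The chemokine gene cxcl12a, whose product guides migrating cells, had 1995 CPM at 14 hpf, 1838 at 18 hpf, 1368 in the second 18 hpf library, 879 at 20 hpf, 1522 at 24 hpf and 736 at 30 hpf in head mesoderm, against 0, 35.1, 4.65, 9.18, 15.5 and 39.5 CPM in ectomesenchyme of the same libraries. It was found in 60 of the 61 head mesoderm cells and in 10.2% of ectomesenchyme cells, and its summed level was higher in head mesoderm in each of the 6 libraries. The fitted log2 change was 6.49 ± 0.65 (SE, adjusted p = 0.00111, edgeR, 3 libraries). The call held under each alternative run.

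The endothelin ligand gene edn1 and the receptor gene ednrab differed in opposite directions. The ligand gene edn1, which patterns the lower jaw skeleton, had 0 CPM at 14 hpf, 23.9 at 18 hpf, 180 in the second 18 hpf library, 442 at 20 hpf, 353 at 24 hpf and 32.7 at 30 hpf in head mesoderm, against 0 to 2.20 CPM in ectomesenchyme. Its log2 change was 7.71 ± 0.53 (SE, adjusted p = 0.000136, edgeR). The receptor gene ednrab was the reverse, with 4 UMIs in head mesoderm and 22705 in ectomesenchyme of the 3 tested libraries, a log2 change of -7.63 ± 0.26 (SE, adjusted p = 2.76e-06, edgeR). Over the 6 libraries with head mesoderm, ednrab lay at 0 to 9.99 CPM in head mesoderm and at 203 to 1614 CPM in ectomesenchyme. Both calls held under each alternative run.

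Of the platelet-derived growth factor genes, a ligand and 1 receptor gene were higher in head mesoderm and the other receptor gene was lower. The ligand gene pdgfab had 42.5, 71.6, 296, 423, 353 and 70.9 CPM in head mesoderm at 14 hpf, 18 hpf, second 18 hpf, 20 hpf, 24 hpf and 30 hpf, against 2.20, 5.02, 6.23, 3.00, 15.5 and 7.28 CPM in ectomesenchyme. The log2 change of pdgfab was 5.79 ± 0.57 (SE, adjusted p = 0.000956, edgeR). The receptor gene pdgfra, named after its values were seen, was lower in head mesoderm, with a log2 change of -2.13 ± 0.32 (SE, adjusted p = 0.00856, edgeR). Its call was lost without the second 18 hpf library (adjusted p = 0.160, edgeR) and without the 20 hpf library (adjusted p = 0.0800, edgeR). The other receptor gene of the family, pdgfrb, ran the opposite way, at 113, 85.5 and 16.4 CPM in head mesoderm of the 3 tested libraries and 0.634, 0.353 and 4.16 CPM in ectomesenchyme, a log2 change of 6.54 ± 0.94 (SE, adjusted p = 0.00684, edgeR).

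The BMP genes that passed included a ligand and an antagonist, in opposite directions. The ligand gene bmp4 had 84.9, 203, 243, 71.2, 27.2 and 21.8 CPM in head mesoderm at 14 hpf, 18 hpf, second 18 hpf, 20 hpf, 24 hpf and 30 hpf, against 0 to 1.04 CPM in ectomesenchyme. The 3 tested libraries held 92 UMIs of bmp4 in head mesoderm and 1 in ectomesenchyme, a ratio of 2133 after scaling to the totals (95% interval 373 to 85150), and the call was lost without the second 18 hpf library (adjusted p = 0.0830, edgeR). The secreted BMP antagonist gene grem2b was lower in head mesoderm, unlike the antagonist gene nog1 of the rule. It had 5 UMIs, all in the 30 hpf library, against 8975 in ectomesenchyme. The ratio was 0.01292 (95% interval 0.004193 to 0.03015), and the gene passed (adjusted p = 0.000929, edgeR). Of 16 BMP pathway genes tested, 4 were higher (2.6% over all genes tested), 1 was lower (1.28% over all) and 11 did not pass. Their median log2 change was 0.71, against 0.00 over all genes. The higher genes included the BMP-responsive id3, at 1012, 997 and 878 CPM in head mesoderm and 333, 406 and 287 CPM in ectomesenchyme of the 3 tested libraries (log2 change 1.49 ± 0.12 SE, adjusted p = 0.000433, edgeR). The inhibitory Smad genes smad6a and smad7 were higher too, but both calls were lost without the second 18 hpf library (adjusted p = 0.329 and 0.304, edgeR) and without the 20 hpf library (adjusted p = 0.266 and 0.245, edgeR).

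**Figure D2:**
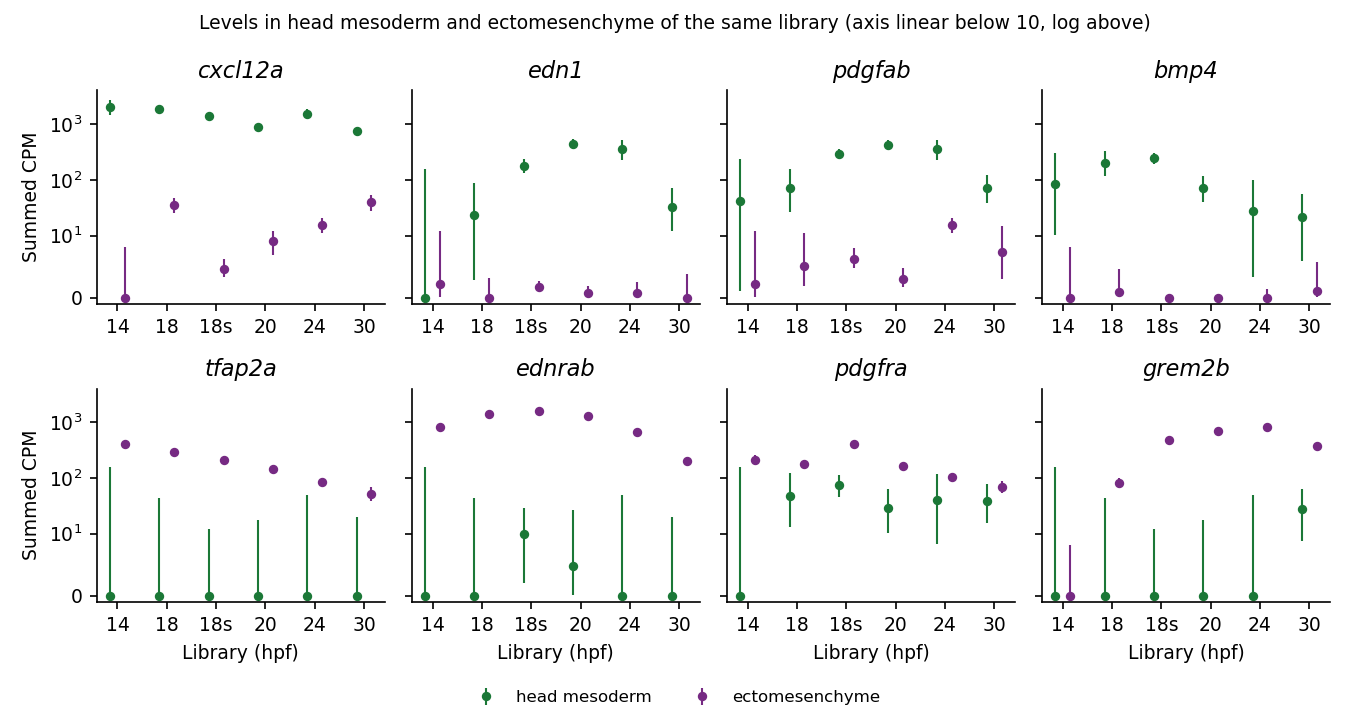
Summed CPM (vertical axis, linear below 10 and logarithmic above) of 4 genes higher and 4 genes lower in head mesoderm (green) than in ectomesenchyme (purple), by library age in hpf (18s is the second 18 hpf library). Points are class sums with exact 95% Poisson intervals; cxcl12a lies at 736 to 1995 CPM in head mesoderm, while tfap2a has no UMI there in any library.

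Both Nkx2 genes named here were higher in head mesoderm. The homeobox gene nkx2.5, a regulator of heart progenitors, was found in 17 of 61 cells, with 213, 200 and 76.4 CPM in head mesoderm of the second 18 hpf, 20 hpf and 30 hpf libraries, and 2 UMIs in ectomesenchyme of all 3. Its close relative nkx2.7 had 324 UMIs in head mesoderm and 2 in ectomesenchyme, a ratio of 3756 (95% interval 1031 to 31150). Of 17 cells with nkx2.5, 15 also held nkx2.7, and 9 more cells held nkx2.7 alone. Both genes passed the threshold (adjusted p = 1.57e-05 for nkx2.5 and 2.76e-06 for nkx2.7, edgeR), and both calls held under each alternative that tested them. The transmembrane protein gene tmem88a, a Wnt inhibitor in heart progenitors, had 702, 446 and 49.1 CPM in head mesoderm of the tested libraries, against 0.739, 0.177 and 1.04 CPM in ectomesenchyme. The ratio of its summed UMIs was 808.9 (95% interval 420.7 to 1786), and it passed (adjusted p = 1.57e-05, edgeR).

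The apelin receptor genes, aplnra and aplnrb, were higher in head mesoderm. These receptors act in gastrulation movements and heart progenitor migration. The 3 tested libraries held 101 UMIs of aplnrb in head mesoderm and none in ectomesenchyme, so that aplnrb was at least 781-fold higher against a floor of 3 UMIs over the group (adjusted p = 0.000136, edgeR). Its paralog aplnra, named after its values were seen, lay at 255, 143, 536, 309, 190 and 65.5 CPM in head mesoderm at 14 hpf, 18 hpf, second 18 hpf, 20 hpf, 24 hpf and 30 hpf, and at 0 to 6.12 CPM in ectomesenchyme. The aplnra change was 6.67 ± 0.37 on the log2 scale (SE, adjusted p = 4.46e-05, edgeR).

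Of 9 cranial mesoderm regulators tested, 2 were higher (2.6% over all genes tested), 1 was lower (1.28% over all) and 6 did not pass. Their median log2 change was 1.14. The higher genes were nkx2.5 and eya1, a transcriptional cofactor in muscle and placode development, which had 96.5, 128 and 186 CPM in head mesoderm of the 3 libraries and 22.7, 17.8 and 16.6 CPM in ectomesenchyme (log2 change 2.72 ± 0.31 SE, adjusted p = 0.00216, edgeR). Among those not passing, foxc1a had a log2 change of 1.14 ± 0.33 (SE, adjusted p = 0.107, edgeR) and six1b 0.89 ± 0.38 (SE, adjusted p = 0.266, edgeR). Without the 30 hpf library foxc1a passed (adjusted p = 0.0026, edgeR), and with at least 5 cells per class both foxc1a and six1b passed (adjusted p = 0.0130 and 0.0429, edgeR). The head mesoderm markers foxc1b (0.06 ± 0.29 SE, adjusted p = 0.943, edgeR) and foxf2a (2.07 ± 1.47 SE, adjusted p = 0.516, edgeR) did not pass, nor did they under any alternative. In head mesoderm foxc1b was higher in 1 of the 3 libraries and foxf2a in 2. The lower gene was mef2ca, a MADS-box factor that acts both in muscle and in NC-derived skeleton, with 1 UMI in head mesoderm and 1124 in ectomesenchyme, and its call was lost without the second 18 hpf library (adjusted p = 0.0562, edgeR). Of 24 myogenic genes, 8 had no UMI in the 61 cells, and of the 4 tested 1 was lower and none higher. The list summed to 637, 1074, 869, 627, 462 and 366 CPM in head mesoderm at 14 hpf, 18 hpf, second 18 hpf, 20 hpf, 24 hpf and 30 hpf, against 106, 203, 270, 200, 317 and 195 CPM in ectomesenchyme. Among its genes fsta had 121 UMIs in the 29 head mesoderm cells with tcf21 and 180 in the 32 without. For myf5 these were 29 UMIs, in 8 cells, and 28 UMIs, in 3 cells, of which 1 cell held 18. For myod1 they were 0 and 2 UMIs, and myog had none. The sums are thus not those of muscle regulators alone. Of the cardiac list, nkx2.5 alone was abundant enough to test. The list was higher in head mesoderm in the second 18 hpf library (566 against 6.86 CPM). It was lower at 24 hpf (54.3 against 141 CPM) and 30 hpf (87.3 against 302 CPM). Of its 14 genes, 4 had UMIs in ectomesenchyme at 24 hpf and 2 at 30 hpf, against 2 and 3 in head mesoderm. The 30 hpf level of nkx2.5 was 76.4 CPM in head mesoderm and 0 CPM in ectomesenchyme. For hand2, a factor of heart and ventral arch, the ratio of head mesoderm to ectomesenchyme at 24 hpf was 0 (interval 0 to 0.382). The lower sums thus rest on few genes, and the part of each gene in them was not tested. The early myogenic factor myf5 was found in 11 of the 61 cells, 5 of them at 20 hpf and 4 at 30 hpf. The 20 hpf cell with 18 UMIs of myf5 also held 46 UMIs of meox1, 16 of tcf15 and none of tbx1 or tcf21.

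Genes of NC and arch identity were the other side of the comparison. Of 16 tested, 7 were lower in head mesoderm (1.28% over all genes tested), 2 were higher (2.6% over all) and 7 did not pass. Their median log2 change was -0.84. The NC regulator tfap2a had 0 UMIs in head mesoderm and 2873 in ectomesenchyme, at least 41.3-fold lower (adjusted p = 0.00186, edgeR). The arch patterning genes dlx5a and dlx4b were likewise at 0 UMIs, at least 24.0-fold and 16.7-fold lower than in ectomesenchyme, and dlx3b had 1 UMI against 5545. These Dlx genes are of the same family as dlx2a, whose absence the rule required, so their absence is not an independent check. The nuclear receptor gene nr2f5 was lower with a log2 change of -1.80 ± 0.20 (SE, adjusted p = 0.00203, edgeR) and the Ets factor gene fli1a with -1.998 ± 0.37 (SE, adjusted p = 0.0255, edgeR). The fli1a call was lost without the second 18 hpf library (adjusted p = 0.139, edgeR) and without the 20 hpf library (adjusted p = 0.143, edgeR).

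The higher genes of that list were prrx1a and sox10. The mesenchymal homeobox gene prrx1a was found in 59 of 61 head mesoderm cells, with 297, 728, 250, 347, 421 and 344 CPM in head mesoderm at 14 hpf, 18 hpf, second 18 hpf, 20 hpf, 24 hpf and 30 hpf, against 22.04, 64.4, 67.1, 103, 125 and 166 CPM in ectomesenchyme. Its log2 change was 1.56 ± 0.21 (SE, adjusted p = 0.00558, edgeR), and the call was lost without the 20 hpf library (adjusted p = 0.0677, edgeR). The level was higher in head mesoderm in each of the 6 libraries.

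The sox10 transcript, whose promoter drives the transgene used for the sort, was present in head mesoderm. It had 637, 823, 2017, 171, 326 and 81.8 CPM in head mesoderm at 14 hpf, 18 hpf, second 18 hpf, 20 hpf, 24 hpf and 30 hpf, against 1349, 674, 768, 76.1, 67.0 and 77.0 CPM in ectomesenchyme. In the second 18 hpf library sox10 was found in all 15 head mesoderm cells, in 43.3% of spi1b-positive cells and in 48.1% of cdh5-positive cells, while its level was 149 CPM in spi1b-positive and 303 CPM in cdh5-positive cells. That library's cells with epcam had 4592 CPM of sox10 and those with cmlc1 2169 CPM. Over the 3 tested libraries the log2 change of sox10 was 1.05 ± 0.23 (SE, adjusted p = 0.0446, edgeR), and it was lost without the second 18 hpf library (adjusted p = 0.517, edgeR) and without the 20 hpf library (adjusted p = 0.291, edgeR). The part of free RNA in this level was not tested.

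FGF and Wnt genes differed in 1 direction where they passed, while over all genes tested 2.6% were higher and 1.28% lower. Of 13 FGF pathway genes 6 were higher and none lower, with a median log2 change of 0.91. They included the ligand genes fgf10a, with 58 UMIs in head mesoderm against 10 in ectomesenchyme, and fgf10b, with 51 against 5, which give ratios of 134.5 (95% interval 68.1 to 295) and 236.5 (94.99 to 759). In the 3 tested libraries fgf10a had 150, 47.5 and 16.4 CPM in head mesoderm and 0.106, 0.882 and 4.16 CPM in ectomesenchyme. For fgf10b these were 120, 47.5 and 27.3 CPM against 0.106, 0 and 4.16 CPM. Both differences were smallest at 30 hpf. The receptor gene fgfr4 was higher by 3.74 ± 0.42 on the log2 scale (SE, adjusted p = 0.00201, edgeR), and the Ets target gene etv4 by 3.10 ± 0.44 (SE, adjusted p = 0.00684, edgeR). Without the second 18 hpf library the calls of fgf10b (adjusted p = 0.261, edgeR), etv4 (0.0598) and fgfr2 (0.0562) were lost, and without the 20 hpf library those of etv4 (0.0572), fgfr2 (0.120) and fgfrl1a (0.0887).

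Of 10 Wnt genes 4 were higher and none lower, with a median log2 change of 1.42. The R-spondin gene rspo3, which encodes a secreted amplifier of Wnt signalling, had 110, 190 and 54.6 CPM in head mesoderm of the 3 tested libraries and 0.528, 2.12 and 3.12 CPM in ectomesenchyme (log2 change 6.55 ± 0.52 SE, adjusted p = 0.000396, edgeR). The ligand gene wnt11r, known for non-canonical signalling, had 73.2, 94.99 and 65.5 CPM in head mesoderm and 4.22, 2.47 and 3.12 CPM in ectomesenchyme (log2 change 4.56 ± 0.42 SE, adjusted p = 0.000724, edgeR). The calls of the feedback inhibitor gene nkd1 and the receptor gene fzd7a were lost without the second 18 hpf library (adjusted p = 0.108 and 0.235, edgeR) and without the 20 hpf library (adjusted p = 0.144 and 0.258, edgeR).

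Of 9 Notch genes 3 were higher (2.6% over all genes tested), the Hairy-related repressor genes her9, hey1 and her15.1. The her9 level was 1178, 1814 and 1293 CPM in head mesoderm of the tested libraries and 605, 615 and 266 CPM in ectomesenchyme (log2 change 1.56 ± 0.21 SE, adjusted p = 0.00503, edgeR). The hey1 call was lost without the second 18 hpf library (adjusted p = 0.0830, edgeR) and without the 20 hpf library (adjusted p = 0.160, edgeR), and the her15.1 call without the second 18 hpf library (adjusted p = 0.143, edgeR). Reads of her15.1 may be shared with its near-identical copy her15.2, so its counts are uncertain.

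Matrix and adhesion genes that passed were all higher in head mesoderm, 5 of 21 and 3 of 12 tested. Over all genes tested 2.6% were higher and 1.28% lower. The collagen-binding matrix gene sparc had 632, 451 and 404 CPM in head mesoderm of the tested libraries and 112, 106 and 129 CPM in ectomesenchyme (log2 change 2.10 ± 0.19 SE, adjusted p = 0.000724, edgeR). The fibrillar collagen gene col5a1 had 223, 99.7 and 251 CPM in head mesoderm and 19.0, 16.6 and 62.4 CPM in ectomesenchyme (log2 change 2.74 ± 0.34 SE, adjusted p = 0.00318, edgeR). The cartilage collagen genes col2a1a and col9a1a were higher as well, but the first call was lost without the 20 hpf library (adjusted p = 0.0634, edgeR) and the second without the second 18 hpf library (adjusted p = 0.217, edgeR). Each of the 3 adhesion calls was lost when 1 library was left out. Without the second 18 hpf library these were the fibronectin receptor gene itga5 and the protocadherin genes pcdh18b and pcdh10b (adjusted p = 0.148, 0.107 and 0.0598, edgeR), and without the 20 hpf library pcdh18b and pcdh10b (adjusted p = 0.0896 and 0.197, edgeR). Of 15 chemokine and guidance genes, 7 were higher and 2 lower, and the scavenger receptor gene ackr3b lost its call without the second 18 hpf library (adjusted p = 0.317, edgeR) and without the 20 hpf library (adjusted p = 0.0869, edgeR).

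No gene passed in several lists. These included the 34 S phase genes tested (median log2 change -0.20), the 38 genes of G2 and M (0.08) and the 57 ribosomal protein genes (-0.08). Among them were also the 20 stress and immediate early genes (-0.02), the 6 hedgehog response genes (0.47), the 4 retinoic acid genes (1.45) and the 4 Hox and cofactor genes (0.72). The paraxial and sclerotome (3 tested), epithelial (2), neural (2) and endoderm (2) lists had no call either. The retinoic acid genes tested were 4 of the 22 measured in both tables, and the others were too sparse to test. Over all 4535 genes 3.88% passed, so 0 calls is near that share in the short lists. It is not far from it in the lists of 34, 38 and 57 genes, and no result about these genes is drawn from it.

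**Figure D3:**
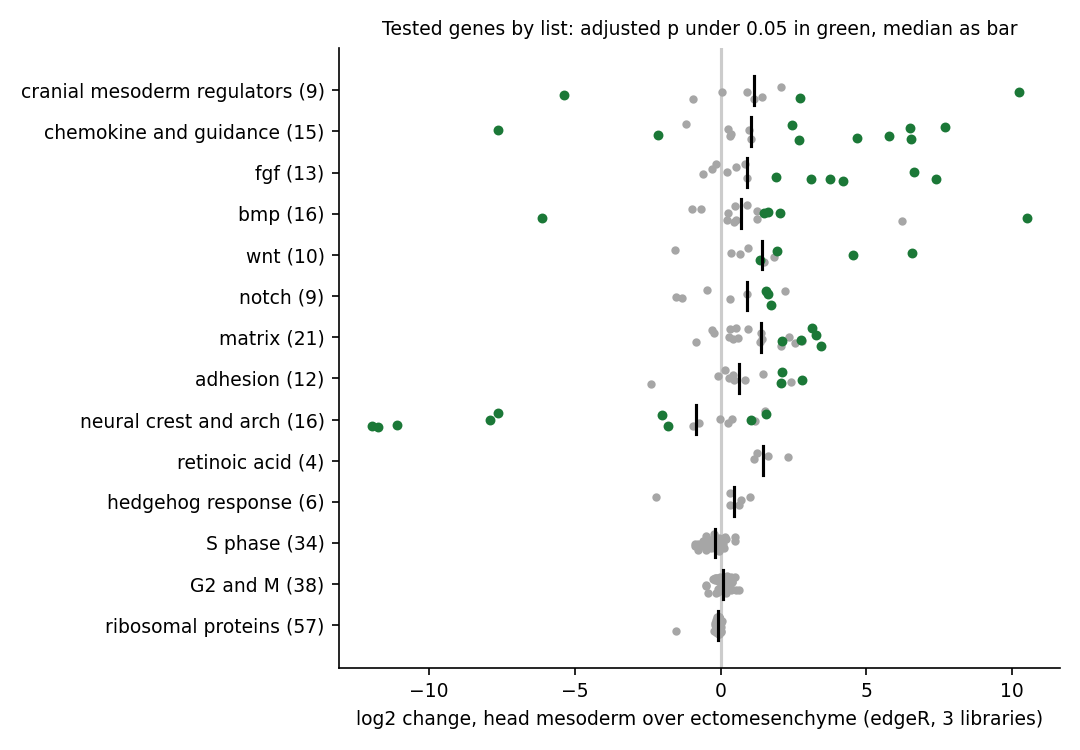
Log2 change of head mesoderm over ectomesenchyme (horizontal axis) for each tested gene of 14 lists (rows, with the number tested), fitted by edgeR over 3 libraries. Green points had an adjusted p under 0.05 and bars are list medians. The NC and arch list has 7 green points below 0 and 2 above, and the cell cycle and ribosomal lists have none. Over all genes tested 3.88% passed.

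Head mesoderm was not uniform, and cells with and without tcf21 differed in several genes. A UMI of tcf21 was present in 29 cells and absent from 32, and in the 5 libraries that held both kinds the values below can be read within a library. Cells with tcf21 were 1 of 7 at 18 hpf, 9 of 15 in the second 18 hpf library, 8 of 13 at 20 hpf, 3 of 8 at 24 hpf and 8 of 16 at 30 hpf. Each tally over 5 libraries below thus includes the 18 hpf library, in which 1 cell stands for the cells with tcf21. These are descriptions, since tcf21 was part of the rule, cells of 1 library are not replicates, and the genes were picked from those named above or after their values were seen. Cells with tcf21 were deeper, with a median of 15596 UMIs against 11778, and part of the cells without a UMI may have carried the transcript. All 29 cells with tcf21 also had tbx1, against 20 of the 32 without.

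Several of the genes named above were more abundant in cells with tcf21. The edn1 transcript was in 22 of 29 cells with tcf21 and in 1 of 32 without, at 395 and 2.38 CPM, and it was higher with tcf21 in 5 of 5 libraries. The tmem88a level was 705 CPM with tcf21 and 69.1 CPM without, again higher with tcf21 in 5 of 5 libraries. For nkx2.7 the levels were 589 and 181 CPM, higher with tcf21 in 4 of 5 libraries, with 3 cells of the second kind holding all 76 of its UMIs. Other cardiac genes went both ways. Those lower with tcf21 included hand2 (0 CPM with tcf21, 112 CPM without), gata5 (2.20 and 23.8 CPM) and tnnt2a (0 and 26.2 CPM). Without tcf21, hand2, gata5 and tnnt2a were seen in 3, 3 and 2 cells. Each was lower with tcf21 in 1 of 5 libraries, and gata5 was higher in 1. Those higher with tcf21 included nkx2.5 (217 and 61.9 CPM), gata6 (32.9 and 19.05 CPM), isl1 (21.96 and 7.14 CPM) and tbx20 (6.59 and 0 CPM). Of these, nkx2.5 was higher in 4 of 5 libraries, isl1 in 3, tbx20 in 2 and gata6 in 1. For pdgfab the levels were 402 and 97.6 CPM, for rspo3 165 and 78.6 CPM and for pdgfrb 105 and 42.9 CPM. Each of the last was higher with tcf21 in 5 of 5 libraries. Of the 23 cells with edn1, 21 also had nkx2.7.

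Other genes were more abundant in cells without tcf21. The level of twist1a, a bHLH factor of mesenchyme, was 65.9 CPM with tcf21 and 857 CPM without, lower with tcf21 in 5 of 5 libraries. For its paralog twist1b the levels were 17.6 and 195 CPM, for pdgfra 4.39 and 95.3 CPM, for fli1a 4.39 and 64.3 CPM and for col5a1 57.1 and 362 CPM, each lower with tcf21 in 5 of 5 libraries. The cartilage collagen gene col9a3 was in none of 29 cells with tcf21 and in 12 of 32 without, and col2a1a was at 4.39 and 174 CPM. Not every matrix or mesenchymal gene followed, since sparc had 525 CPM with tcf21 and 517 CPM without, and prrx1a was in 27 of 29 cells with tcf21. Of the marker genes, six2a (50.5 CPM with tcf21, 243 CPM without) and cnmd (98.8 and 291 CPM) were lower with tcf21 in 5 of 5 libraries, while meox1 was at 215 and 214 CPM, with 46 of the 90 UMIs of the second value in 1 cell. The chemokine gene cxcl12a was present on both sides, at 911 CPM with tcf21 and 1498 CPM without. The keratin gene krt18a.1 was at 237 CPM with tcf21 and 983 CPM without, lower with tcf21 in 5 of 5 libraries. The division was not complete, since 11 cells held both tcf21 and twist1a, 18 held tcf21 alone, 26 held twist1a alone and 6 held neither.

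**Figure D4:**
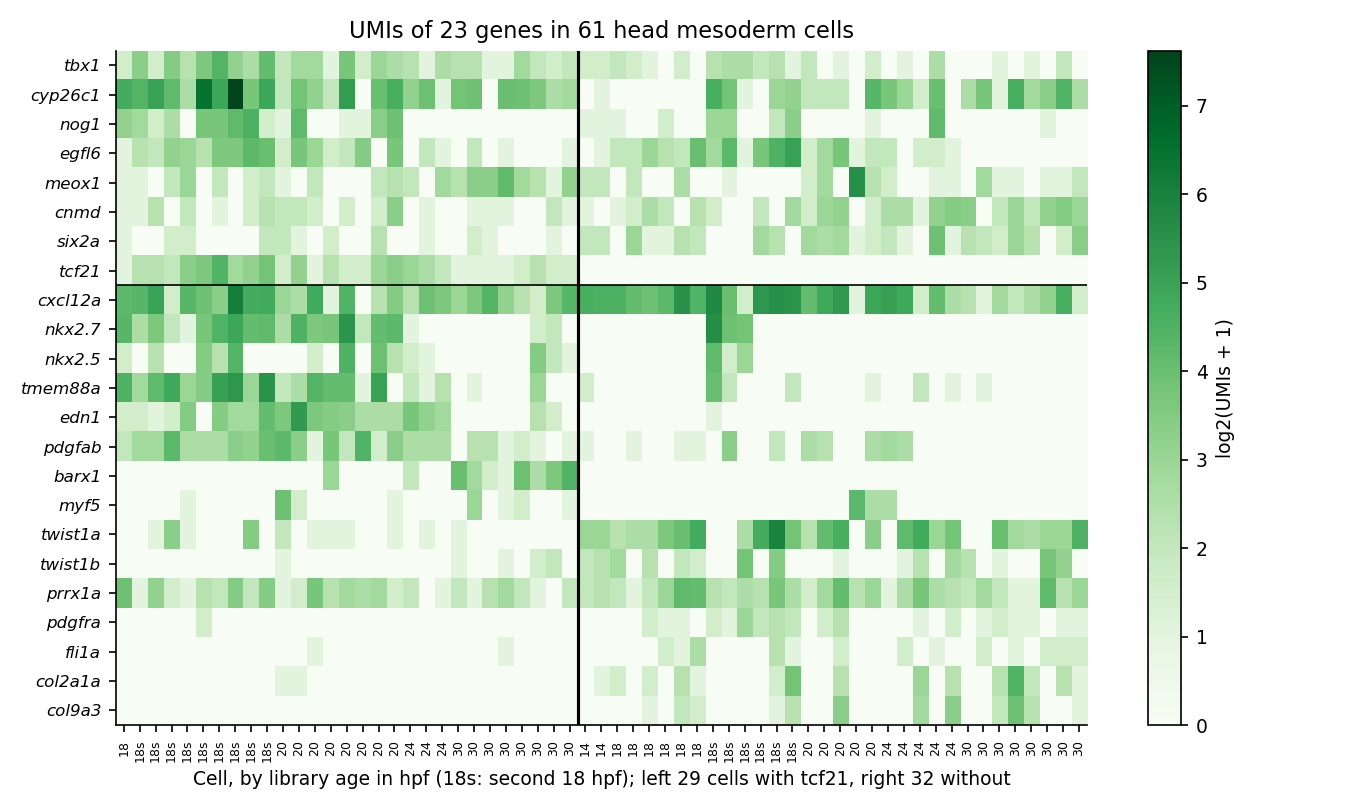
UMIs of 23 genes (rows) in each of the 61 head mesoderm cells (columns, labelled by library age in hpf), as log2(UMIs + 1). The 8 genes above the horizontal line chose the cells; the 29 cells left of the vertical line hold tcf21 and the edn1 and tmem88a signal, and the 32 cells on the right hold most twist1a, col2a1a and col9a3.

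The NC and arch gene barx1, a homeobox gene of skeletal condensations that is also found in some mesoderm, appeared on 1 side of this division. It was found in 10 head mesoderm cells, all with tcf21, and in 0 of 32 cells without, which at this depth limits the share of cells with a UMI to 9.38% and not the share that express the gene. At 30 hpf all 8 cells with tcf21 held barx1 and none of the 8 cells without tcf21 did. Of those 8 cells with tcf21 at 30 hpf, 2 held edn1, against 8 of 8 at 20 hpf. In that library barx1 had 409 CPM in head mesoderm and 381 CPM in ectomesenchyme, and in the second 18 hpf library 0 and 4.75 CPM. Over the 3 tested libraries its log2 change was -0.03 ± 0.32 (SE, adjusted p = 0.983, edgeR), and the direction turned in 4 alternatives.

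**Figure D5:**
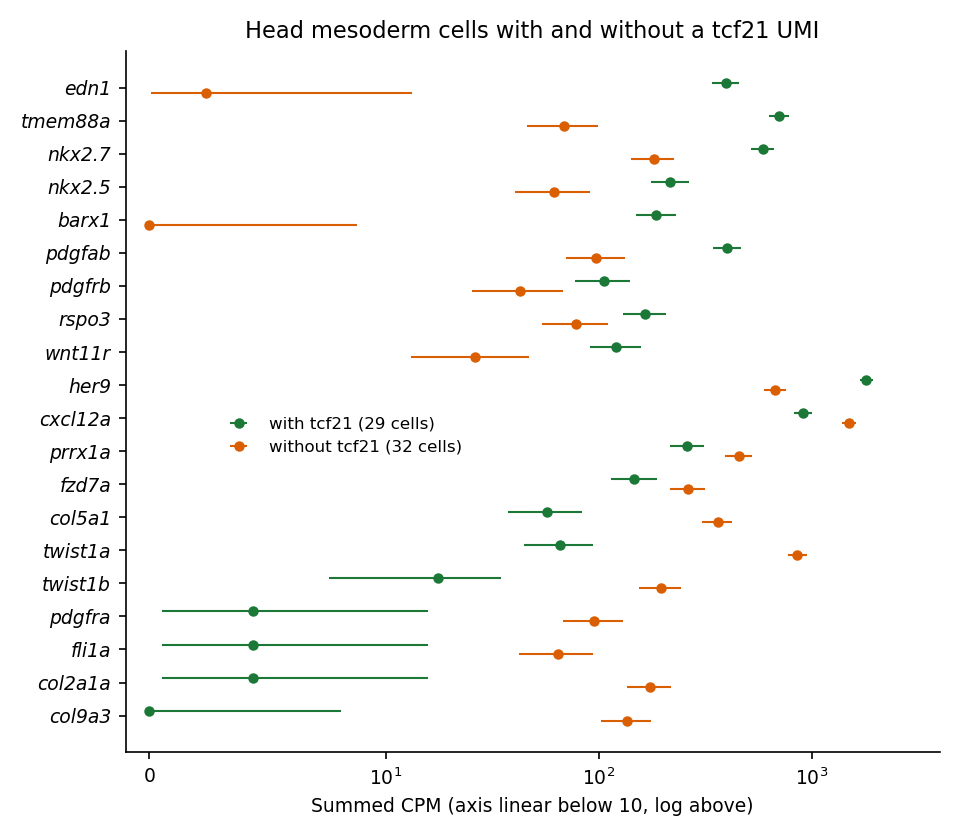
Summed CPM (horizontal axis, linear below 10 and logarithmic above) of 20 genes in the 29 head mesoderm cells with a tcf21 UMI (green) and the 32 without (orange). Points are sums over cells of all libraries with exact 95% Poisson intervals, which cover counting error only; edn1 lies at 395 and 2.38 CPM and twist1a at 65.9 and 857 CPM.

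Smaller groups of cells had features of their own. The bHLH gene hand2, a factor of heart and ventral arch, was found in 3 head mesoderm cells, all in the second 18 hpf library and all with nkx2.5 but without tcf21. All 17 cells with nkx2.5 also held cyp26c1. Both cells of the 14 hpf library held tbx1, meox1, six2a, cxcl12a and sox10.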

How the data were processed

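Single cells were profiled with 10x Genomics 3′ chemistry, and the deposited values are UMI counts per gene and cell. Per the study's methods, the authors mapped reads to GRCz11 with Cell Ranger (version not given in the sources used here), and the 12 to 30 hpf libraries were aggregated into a table of 17651 genes, while the second 18 hpf table held 18597. The authors had removed low-quality cells, and every deposited cell was kept here. Aggregation can thin reads to a common depth, which would lower counts in deeper libraries. No sequences are shown.

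Genes were matched by name, and 16600 were in both tables. CPM are UMIs of a class divided by all its UMIs, times 1000000. Counts were summed by class and library and tested with edgeR 4.0.16 (TMM, filterByExpr, glmQLFit and glmQLFTest, library as a block, Benjamini-Hochberg over all genes tested), with at least 10 cells of each class in a library and the genes of the rule left out. DESeq2 1.42.0 was an alternative. The libraries are the replicates and differ in age and chemistry. The p-values therefore measure the spread of the difference between these libraries, moderated by variance shared across genes. Doublets were called with Scrublet in scanpy 1.11.5 (20 components) and kept. Shares have exact Clopper-Pearson intervals and UMI sums exact Poisson intervals, which cover counting error only, and the limit for a count of 0 is 3 counts. Simulated counts used 1 mean profile for all libraries and classes and 1 fixed dispersion, and some of the genes were then changed. Among 4455 tested genes, 83.2% of 89 changes of 2 and 96.6% of 88 changes of 3 on the log2 scale were recovered, with 5 false calls. The simulation held no difference of age, chemistry or cells between libraries, so these rates do not measure recovery in the real comparison.

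The members of the rule and all gene lists were chosen with earlier results of these data known. The text draws on up to 6 called genes with the largest change in each list, markers that define a cell type, and the 10 largest changes in each direction over all genes with at least 20 UMIs in the higher class and 1 direction in every library. Not all are described. Those left out include shisa3, pcolcea, si:ch211-160j14.3 and ccn2a (higher) and ptgdsb.1, si:ch211-198m17.1 and si:ch211-156j16.1 (lower). Genes outside these sets are said to have been chosen after their values were seen. The alternatives covered normalization, test, filter, block, each library left out, minimum cells, marker number, a stricter ectomesenchyme, doublets and cells thinned to 5000 UMIs.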

Additional observations from a re-analysis of the deposited data

Results flagged for a closer look

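For 4 genes the libraries pointed in opposite directions, by counting intervals that lay on opposite sides of 1, and the difference between libraries was not tested. The ratio of head mesoderm to ectomesenchyme for id3 in the 24 hpf library was 3.65 (95% interval 2.90 to 4.53), while in the 14 hpf library it was 0.314 (0.101 to 0.740). For sox10 the same libraries gave 4.86 (3.04 to 7.46) at 24 hpf but 0.472 (0.263 to 0.785) at 14 hpf. For hand2 it was 494 in the second 18 hpf library (159 to 2480), where 3 cells held its UMIs, and 0 at 24 hpf (0 to 0.382). For her15.2, the near-identical copy of her15.1, it was 6.55 (4.61 to 9.36) in the 30 hpf library, while the 24 hpf library gave 0.418 (0.135 to 0.984). The 14 hpf library held 2 head mesoderm cells and the 24 hpf library 8, and these intervals cover counting error and not the spread between cells.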

How the results depend on the processing

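The share of cells that met the rule, 2.14%, was 3.05% with 2 of 8 markers required and 6.10% with no excluded genes, and changed by less than its interval with 4 markers, with doublets removed and with cells thinned to 5000 UMIs. The 176 genes called became 779 of 15698 with no filter on low counts (362 higher, 417 lower, where the median log2 change of all genes was -0.30), 56 with no replicate block (46 higher, 10 lower), 361 with at least 5 cells of each class in 5 libraries (217 higher, 144 lower, 143 shared with the 176) and 89 with thinned cells, of 2263 tested. Leaving out 1 library gave 60 to 871. An alternative chosen after seeing the data, members without nkx2.5, myl7 or tnnt2a at a minimum of 5 cells, gave 342. The remaining settings gave 169 to 239. The cause of these shifts was not tested, apart from the number of genes tested. Directions turned only for genes with adjusted p above 0.5 in every such case: barx1 (0.0214 with no replicate block, -0.3734 to 0.0945 with 1 library left out, the second 18 hpf library turning it, 0.109 with 4 markers, 0.287 thinned), foxc1b (-0.143 with no filter, -0.3607 to 0.2319 with 1 library left out, the 20 hpf library turning it, -0.674 thinned) and twist1b (-0.2324 to 0.661 with 1 library left out, the second 18 hpf library turning it, -0.0979 with 4 markers). With no replicate block 26 called genes named here lost their call. At 5 cells her15.1 and smad7 lost theirs (adjusted p = 0.0654 and 0.0532, edgeR) while foxc1a, six1b and krt18a.1 gained one (0.0130, 0.0429 and 0.0051). Without cells holding nkx2.5, myl7 or tnnt2a, the genes fli1a, hey1, her15.1, smad6a and sox10 lost their call (adjusted p = 0.0624 to 0.964, edgeR). With thinned cells fgfrl1a, fli1a, fzd7a and smad7 lost theirs (adjusted p = 0.0588 to 0.136, edgeR).

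A minimum of 20 cells left no library, and the planned set without nkx2.5 cells at 10 cells left 1, so neither was run. The trend with age was not fitted, since 2 timeline libraries held 10 head mesoderm cells and 4 were required, and its alternatives were not run. No replicate of any age exists in 1 chemistry, which with 61 cells limits statements on age.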
